A study of Mus musculus with 8 samples.

Results

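Matrix metalloproteinases (MMPs), ADAMTS proteases and the tissue inhibitors of metalloproteinases (TIMPs) were followed in the mouse left ventricle in the first days after myocardial infarction (MI). The members were taken by symbol: every gene named Mmp or Adamts with a number, and Timp1 to Timp4, that stood in the count tables of both time points. This gave 46 of 24062 genes, of which 23 were Mmp, 19 were Adamts and 4 were Timp genes. Of the 46, 38 held enough counts to enter the test across 15508 genes, and the other 8 are described by their counts.

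Male C57BL/6 mice aged 8 to 12 weeks had the left anterior descending coronary artery ligated (MI) or were operated on without ligation (sham), and ventricular free wall was taken 1 day or 3 days later. Each of the 4 groups held 2 mice, so 8 libraries of ribosome-depleted total RNA were compared. The sample was whole tissue, ischemic in the MI mice, and was not sorted by cell type. In such bulk samples, fewer cells of a type and less RNA per cell cannot be told apart. Within each group the libraries bear the letters A and B, after the order of the columns, and the letters pair nothing across groups.

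MMPs are zinc-dependent proteases that are mostly made as inactive precursors, and between them cleave collagens, gelatins, laminin, elastin and many signalling proteins. ADAMTS proteases are related secreted enzymes that cut proteoglycans such as versican, trim procollagens or act on other matrix proteins. TIMPs bind the active site of MMPs and, in part, of ADAMTS enzymes, and so inhibit them. In the infarcted heart the proteases among these families are known for breaking down the old matrix while scar tissue is laid down.

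The gene counts of a library summed to 7382490 and 12662237 in MI against 20120257 and 20676514 in sham at 1 day, and to 21055785 and 25041386 in MI against 18831791 and 19845961 in sham at 3 days. At these depths 3 counts were worth 0.102 to 0.369 CPM (counts scaled to the same effective library size). Library B of the MI group at 1 day, the shallowest, held reads for 92.3% of 1506 chemosensory receptor genes, sham library B of 1 day for 50.6%, MI library A of 1 day for 23.6% and the other 5 libraries for 4.45 to 8.23%. Summed over 8 cardiomyocyte markers, the level was 32779 to 43341 CPM in MI against 87294 to 93537 CPM in sham at 1 day, and 3529 to 3830 CPM in MI against 63479 to 68426 CPM in sham at 3 days, so the markers of the labelled heart tissue were high in sham and low in MI. The 9 neutrophil markers summed to 989 and 1994 CPM in MI against 138 and 184 CPM in sham at 1 day, and to 409 and 782 CPM in MI against 103 and 206 CPM in sham at 3 days. Of the 9, 8 were called higher at 1 day, beside 19.3% of all genes tested, and 5 at 3 days, beside 31.7%. S100a8 and S100a9 were the most abundant of the list. Retnlg (log2 fold change 0.04), Ngp (−2.13, adjusted p = 0.308), Ltf and Camp did not pass at 3 days. The 8 monocyte and macrophage markers in the tables, of 9 listed, summed to 881 and 931 CPM in MI against 695 and 902 CPM in sham at 1 day, and to 6214 and 6254 CPM in MI against 694 and 1344 CPM in sham at 3 days. The 1-day sums hide unequal members: Ccr2, Ly6c2, Cd14 and Fcgr1 were called higher in MI at 1 day (4 of 8, beside 19.3% of all genes tested), while Lyz2, the most abundant of the list, did not pass, at a log2 fold change of −0.60 (adjusted p = 0.169). At 3 days all 8 were called higher, beside 31.7% of all genes. The 7 fibroblast markers summed to 1988 and 2674 CPM in MI against 4163 and 4634 CPM in sham at 1 day, and to 9058 and 9153 CPM in MI against 3348 and 6828 CPM in sham at 3 days. Of the 7, 3 were called lower at 1 day, beside 19.7% of all genes tested. At 3 days 4 were called higher and 1 lower, beside 31.7% and 23.7% of all genes. Col3a1 made up the most of the 3-day sum in MI, at a mean of 5331 CPM in MI against 924 CPM in sham, whereas Gsn was lower in MI at 3 days (log2 fold change −3.22, adjusted p = 0.000124). No marker of these lists was at 0 in any library. The part of these cell types in the results was not tested. Nothing in the sources used here tells if MI and sham libraries were made or run apart, and a batch that coincided with MI cannot be told apart from MI.

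On chromosome 9, 10 of the Mmp genes stand side by side, within 427072 bases from 7272514 to 7699585 in GRCm38.p6, in the order Mmp13, Mmp12, Mmp1b, Mmp3, Mmp1a, Mmp10, Mmp8, Mmp27, Mmp20 and Mmp7. Of these, 5 held enough counts for the test across genes, and all 5 were called higher in MI at 3 days, where 31.7% of all genes tested were called higher. At 1 day 4 of the 5 were called higher, where 19.3% of all genes were. Mmp13 held 2 and 7 counts in sham of 1 day and 22 and 5 counts in sham of 3 days. It entered the test through its MI libraries, so its place among the 5 depended on MI. The promoters of the 5 are shown because these neighbours were called in the same direction. Each is the 250 bases before the gene's start on the plus strand, from RefSeq on GRCm38.p6, with the AP-1 motif TGANTCA and the TATA motif TATAAA in capitals where they occur on either strand.
Mmp13, chr9:7272264-7272513: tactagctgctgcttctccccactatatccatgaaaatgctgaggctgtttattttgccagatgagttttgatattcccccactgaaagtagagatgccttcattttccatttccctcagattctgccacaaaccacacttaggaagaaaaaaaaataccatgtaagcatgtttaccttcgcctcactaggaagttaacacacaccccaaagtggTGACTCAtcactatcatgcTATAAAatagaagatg
Mmp12, chr9:7344147-7344396: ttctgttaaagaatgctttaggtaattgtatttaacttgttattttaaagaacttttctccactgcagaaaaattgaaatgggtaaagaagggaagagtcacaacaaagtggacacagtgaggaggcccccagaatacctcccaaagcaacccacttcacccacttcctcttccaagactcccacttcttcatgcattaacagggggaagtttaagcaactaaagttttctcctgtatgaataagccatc
Mmp3, chr9:7445572-7445821: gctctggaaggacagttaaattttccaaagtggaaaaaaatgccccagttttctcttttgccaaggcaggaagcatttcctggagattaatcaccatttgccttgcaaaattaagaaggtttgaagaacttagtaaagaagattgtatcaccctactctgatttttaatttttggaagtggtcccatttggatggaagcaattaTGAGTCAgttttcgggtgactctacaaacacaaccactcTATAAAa
Mmp8, chr9:7558179-7558428: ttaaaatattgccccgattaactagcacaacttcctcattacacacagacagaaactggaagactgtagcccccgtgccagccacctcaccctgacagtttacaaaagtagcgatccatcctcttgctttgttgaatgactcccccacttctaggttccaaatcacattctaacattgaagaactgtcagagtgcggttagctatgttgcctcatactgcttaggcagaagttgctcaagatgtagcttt
Mmp27, chr9:7571146-7571395: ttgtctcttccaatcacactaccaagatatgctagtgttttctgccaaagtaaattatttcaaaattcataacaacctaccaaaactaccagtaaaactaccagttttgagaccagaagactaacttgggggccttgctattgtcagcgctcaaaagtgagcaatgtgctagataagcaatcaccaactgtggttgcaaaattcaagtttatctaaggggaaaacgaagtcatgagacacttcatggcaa
The capitals show an AP-1 motif and, downstream of it, a TATA motif in Mmp13 and Mmp3. Neither motif was in the windows of Mmp12, Mmp8 and Mmp27. Promoters were matched for 32 of the 46 members, and the AP-1 motif was in 7 of the 32, which were Mmp13, Mmp1b, Mmp3, Mmp1a, Mmp10, Mmp20 and Mmp7 of this cluster. It was in 6.87% of 27025 RefSeq promoters of the same length. The TATA motif was in 9 of the 32, the same 7 together with Adamts1 and Mmp21, and in 13% of all promoters. The windows of the 5 cluster genes with too few counts for the test all held both motifs. A match is a string of letters and does not show that a factor bound there.

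At 1 day, 17 of the 38 members tested differed between MI and sham, 13 higher and 4 lower (edgeR's quasi-likelihood test, Benjamini-Hochberg adjusted p under 0.05). Over all 15508 genes, 39.0% differed, 19.3% higher and 19.7% lower, so the share of members called, 44.7%, was near the background. The median log2 fold change of the 38 members was 0.70, beside 0.12 for all genes tested. At 3 days, 21 of the 38 differed, 17 higher and 4 lower, which is 55.3% of the members beside 55.4% of all genes, 31.7% higher and 23.7% lower. The median of the members was 1.33 at 3 days, beside 0.16 for all genes. By family, 10 of 17 MMPs tested were called at 1 day (8 higher, 2 lower) and 11 at 3 days (10 higher, 1 lower). Of 17 ADAMTS genes tested, 5 were called at 1 day (4 higher, 1 lower) and 8 at 3 days (6 higher, 2 lower). Of the 4 TIMPs, 1 was higher and 1 lower on each day. The sham groups of 3 days and 1 day differed in 0 of the 38 members by edgeR's quasi-likelihood test, where 0% of all genes were called. By unadjusted p under 0.05 the sham groups differed in 6 members and 1210 of all genes, and DESeq2 called 0 members and 44 genes.

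**Figure D1:**
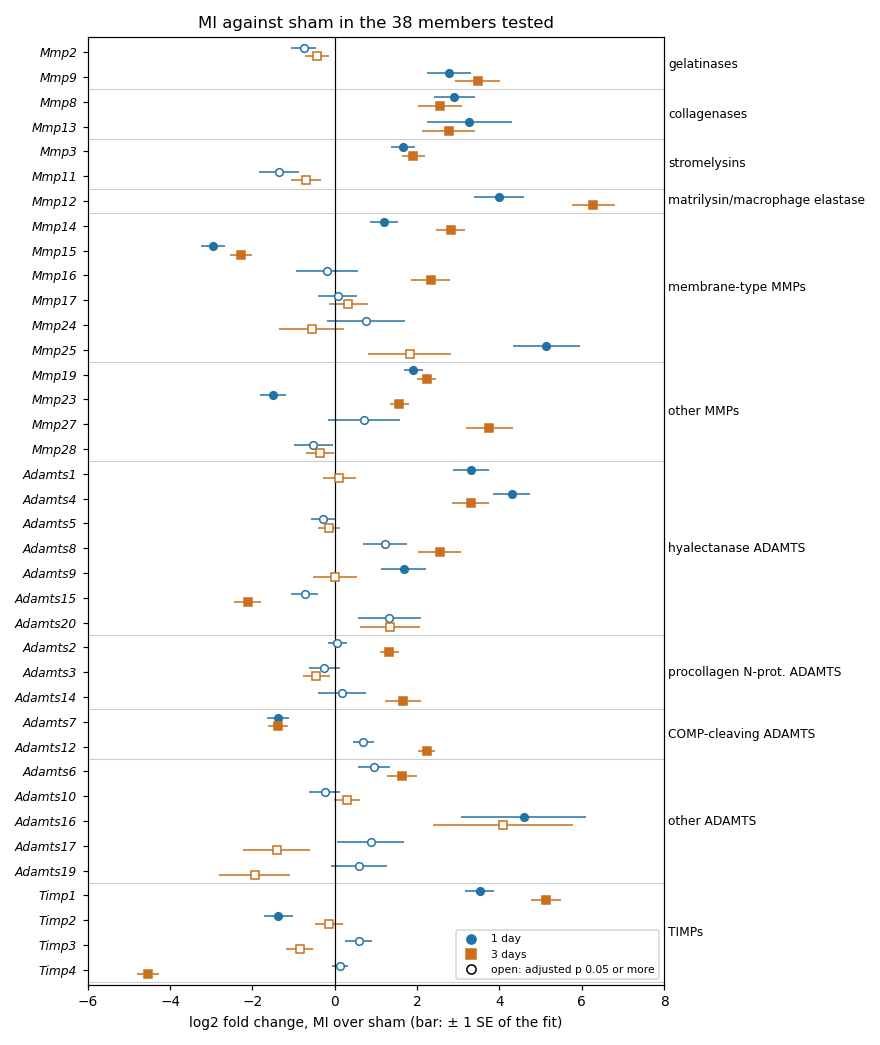
Log2 fold change of MI against sham for the 38 members tested, at 1 day and at 3 days, with the standard error of the fit (2 mice per group); filled points passed the test (Benjamini-Hochberg adjusted p under 0.05). Mmp12 and Timp1 stand furthest to the higher side at 3 days, at 6.27 and 5.13, and Timp4 furthest to the lower side, at −4.54.

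Among the inhibitors, Timp1 rose on both days and Timp4 fell at 3 days. Timp1, a secreted TIMP known to be induced in injured tissue, stood at 137 and 264 CPM in MI against 15.7 and 19.3 CPM in sham at 1 day. By 3 days it stood at 1088 and 926 CPM in MI against 22.0 and 35.7 CPM in sham. The MI and sham values did not overlap on either day, and the 3-day MI libraries were the highest of all 8. By the test, the log2 fold change was 3.52 (SE 0.35, adjusted p = 0.000195) at 1 day and 5.13 (SE 0.37, adjusted p = 4.53e-06) at 3 days, or 11.4-fold and 34.9-fold. The effect was larger at 3 days than at 1 day by 1.61 on the log2 scale (SE 0.46, adjusted p = 0.0320). That difference lost its call without MI library A of 1 day (adjusted p = 0.0723), either sham library of 1 day (0.0696 and 0.132), sham library A of 3 days (0.0924), MI library A of 3 days (0.0998) or MI library B of 3 days (0.0731), while the calls within each day held under every alternative run. The difference between the days was also lost with the transcript tables summed to genes. Timp1 lies inside Syn1 on the X chromosome, on the opposite strand, and Syn1 itself held 3 to 28 counts per library.

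Timp4, the TIMP known for its high level in heart muscle, fell at 3 days. It stood at 58.7 and 44.7 CPM in MI against 48.6 and 46.3 CPM in sham at 1 day, and the groups overlapped. The 3-day values were 1.27 and 1.77 CPM in MI against 37.6 and 34.1 CPM in sham, with a wide gap between the groups. The fitted log2 fold change was 0.13 (SE 0.20, adjusted p = 0.623) at 1 day and −4.54 (SE 0.26, adjusted p = 1.82e-06) at 3 days, a level 23.3-fold lower in MI. The difference between the days was −4.67 (SE 0.33, adjusted p = 0.000105). The summed cardiomyocyte markers, given above, were lower in MI on both days, while at 1 day Timp4 stood above both sham values in MI library A and under both in MI library B. The part of cardiomyocytes in the Timp4 values was not tested. Timp4 lies inside Syn2 on the opposite strand, where Syn2 held 41 to 161 counts.

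Timp3, which is bound to the matrix and also inhibits several ADAMTS and ADAM proteases, stood at 683 and 284 CPM in MI against 329 and 318 CPM in sham at 1 day. At 3 days it stood at 138 and 115 CPM in MI against 230 and 225 CPM in sham. The 1-day MI libraries lay on either side of the sham range, and at 3 days both MI values were under both sham values. Neither day passed the test (log2 fold change 0.58, SE 0.33, adjusted p = 0.181 at 1 day, and −0.85, SE 0.33, adjusted p = 0.0514 at 3 days). The 3-day value was called lower under 7 of 17 alternatives, which were DESeq2 size factors (adjusted p = 0.0286), the DESeq2 Wald test (0.00927), limma-voom (0.0463), the libraries of 3 days alone (0.000900), and the fits without MI library A of 1 day (0.000117), MI library B of 1 day (0.000490) or both libraries B of 1 day (0.00237). Over all 17 alternatives its adjusted p ranged from 0.000117 to 0.260. The difference between the days, −1.43 (SE 0.46, adjusted p = 0.0496), was past the threshold by little and was lost without either sham library of 1 day (adjusted p = 0.130 and 0.156), MI library A (0.109) or B (0.180) of 3 days, or sham library A (0.0997) or B (0.121) of 3 days. It was also lost with limma-voom (0.0624), with no filter on low counts (0.0914) and with the transcript tables summed to genes (0.387). At 1 day the value rests on MI library A: it was 1.08 (adjusted p = 0.00111) without MI library B and −0.20 (adjusted p = 0.322) without MI library A. Scaled by library size alone it was 0.84 (adjusted p = 0.0418). Timp3 lies inside Syn3, which held 38 to 166 counts.

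Timp2, which inhibits MMPs and also takes part in the activation of pro-MMP2 by MMP14, stood at 76.2 and 40.0 CPM in MI against 142 and 162 CPM in sham at 1 day. By 3 days it stood at 116 and 145 CPM in MI against 190 and 98.0 CPM in sham. The groups were apart at 1 day and overlapped at 3 days. On the log2 scale, MI differed from sham by −1.37 (SE 0.35, adjusted p = 0.0139) at 1 day and −0.14 (SE 0.34, adjusted p = 0.743) at 3 days. The difference between the days was 1.23 (SE 0.49, adjusted p = 0.0960), which did not pass. The 1-day call was lost without MI library B (adjusted p = 0.0733), sham library A (0.0512) or sham library B (0.0761).

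**Figure D2:**
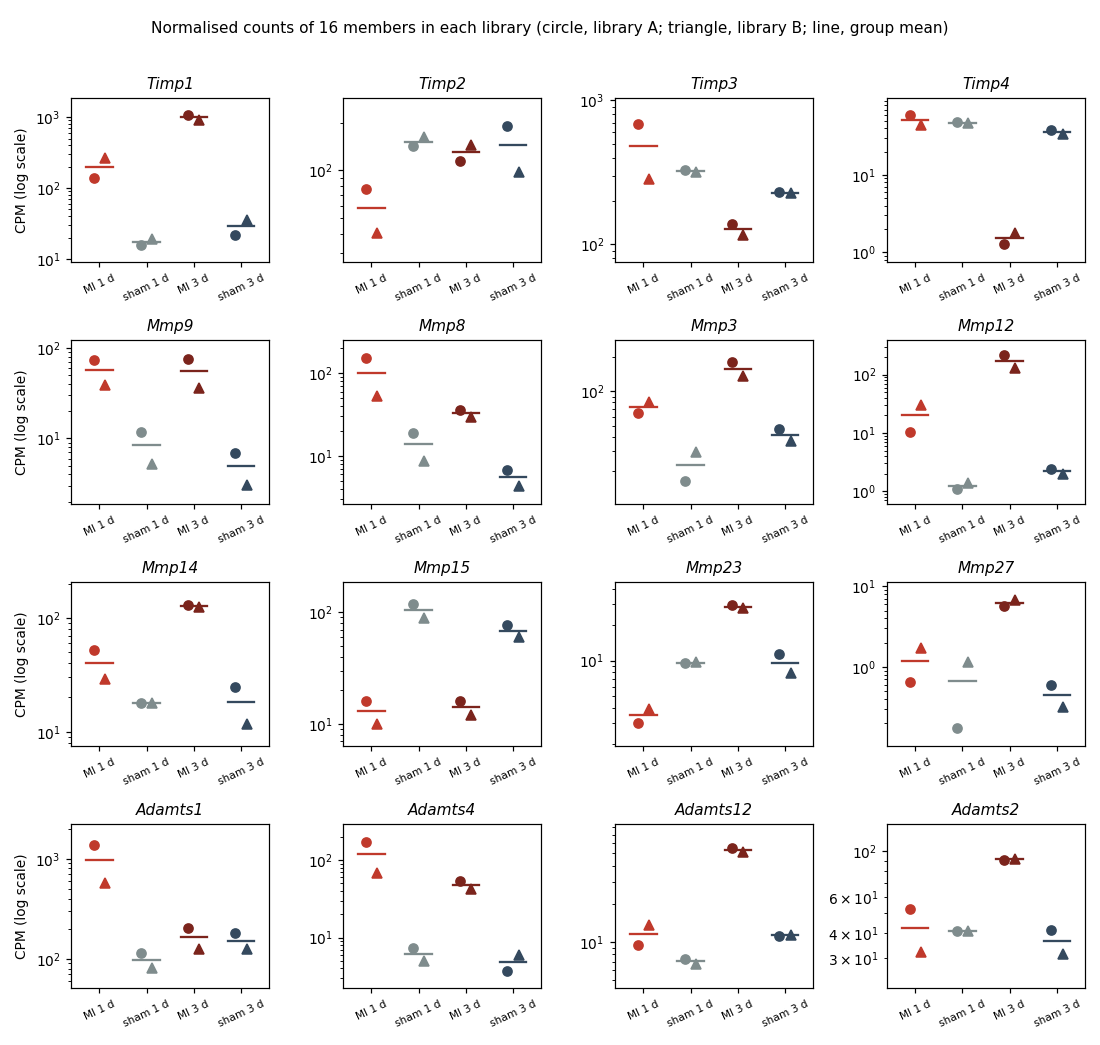
CPM of 16 members in each of the 8 libraries on a log scale, with MI left of sham within each day and a line at the mean of 2 mice (circle, library A; triangle, library B). Timp1 and Mmp12 separate MI from sham on both days, Timp4 at 3 days, and Adamts1 at 1 day.

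Of the gelatinases, which degrade denatured collagen and basement membrane collagen, Mmp9 rose on both days and Mmp2 did not pass the test on either. Mmp9, abundant in neutrophil granules, stood at 74.9 and 39.3 CPM in MI against 11.7 and 5.17 CPM in sham at 1 day, and at 75.5 and 35.8 CPM in MI against 6.89 and 3.08 CPM in sham at 3 days. No MI value came as low as any sham value. The log2 fold change was 2.77 (SE 0.53, adjusted p = 0.00327) at 1 day and 3.48 (SE 0.55, adjusted p = 0.000468) at 3 days. It became 3.48 at 1 day without sham library A, and at 3 days 2.79 without MI library A and 4.17 without sham library A. Mmp2, made mainly by fibroblasts and other stromal cells, was at 43.4 to 73.8 CPM in MI against 94.6 to 105 CPM in sham at 1 day and at 63.7 to 64.1 CPM in MI against 63.1 to 110 CPM in sham at 3 days (log2 fold changes −0.76, adjusted p = 0.0693, and −0.44, adjusted p = 0.229).

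Both collagenases that could be tested were called higher on both days, beside 19.3% of all genes at 1 day and 31.7% at 3 days. Mmp13 entered the test through its MI libraries, so its place in this count depended on MI. Mmp13, the rodent interstitial collagenase, stood at 1.22 and 4.42 CPM in MI against 0.116 and 0.402 CPM in sham at 1 day. The 3-day values were 6.10 and 3.88 CPM in MI against 1.18 and 0.265 CPM in sham. The groups did not overlap, although the sham values of 1 day lie near the worth of 3 counts. By the test, the log2 fold change was 3.27 (SE 1.03, adjusted p = 0.0303) at 1 day, a call lost without MI library B (adjusted p = 0.171), sham library A (0.168) or sham library B (0.0910), and 2.77 (SE 0.64, adjusted p = 0.00436) at 3 days, where leaving out a sham library gave 4.18 (A) or 2.07 (B). The 1-day call of Mmp13 was also lost with limma-voom and with the libraries of 1 day alone. Mmp8, the neutrophil collagenase, was the more abundant in reads, with 52.3 to 152 CPM in MI against 8.73 to 18.8 CPM in sham at 1 day and 29.9 to 35.4 CPM in MI against 4.35 to 6.68 CPM in sham at 3 days. Its log2 fold changes were 2.90 (adjusted p = 0.00202), or 1.91 without MI library A and 3.56 without sham library A, and 2.56 (adjusted p = 0.00252). Within MI, Mmp8 was lower at 3 days than at 1 day by a log2 change of −1.66 (adjusted p = 0.0154), while the summed neutrophil markers were also lower at 3 days, at 409 and 782 CPM against 989 and 1994 CPM. Of the 9 markers, 5 were called lower in MI at 3 days than at 1 day, beside 22.0% of all genes. S100a8 (−0.77, adjusted p = 0.201), S100a9 (−1.12, adjusted p = 0.0751), Csf3r and Camp did not pass. Between the sham groups Mmp8 differed by −1.32 (adjusted p = 0.631), and the difference of the MI effects was −0.34 (adjusted p = 0.769), so neither passed. The part of neutrophils in the Mmp8 and Mmp9 values was not tested.

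Mmp3, stromelysin 1, which cleaves proteoglycans and fibronectin and activates other proMMPs, stood at 64.3 and 80.2 CPM in MI against 16.3 and 29.2 CPM in sham at 1 day. At 3 days it stood at 179 and 136 CPM in MI against 46.9 and 36.8 CPM in sham. The MI values were above the sham values on both days. The fitted log2 fold change was 1.66 (SE 0.29, adjusted p = 0.00223) at 1 day and 1.91 (SE 0.28, adjusted p = 0.000301) at 3 days, and MI at 3 days exceeded MI at 1 day by 1.13 (adjusted p = 0.00854). Sham at 3 days differed from sham at 1 day by 0.88 (adjusted p = 0.631), and the difference of the MI effects was 0.25 (adjusted p = 0.690), so neither passed. Mmp11, stromelysin 3, did not pass the test, at −1.36 (adjusted p = 0.0528) and −0.69 (adjusted p = 0.134).

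Mmp12, the macrophage metalloelastase, had the largest fold of the 38 members tested at 3 days. It stood at 10.4 and 30.5 CPM in MI against 1.10 and 1.38 CPM in sham at 1 day, and at 216 and 127 CPM in MI against 2.40 and 2.02 CPM in sham at 3 days. The lowest MI value was several times the highest sham value on each day. On the log2 scale, MI differed from sham by 3.98 (SE 0.61, adjusted p = 0.00116) at 1 day and 6.27 (SE 0.52, adjusted p = 9.57e-06) at 3 days, or 77.4-fold. With MI library A left out the 1-day value was 4.6, and with MI library B left out it was 3.06. The effects at 3 days and 1 day differed by 2.29 (SE 0.92, adjusted p = 0.101), which did not pass, whereas within MI the level at 3 days exceeded that at 1 day by 3.12 (adjusted p = 0.000365). Within MI, the summed monocyte and macrophage markers were also higher at 3 days. They stood at 6214 and 6254 CPM, against 881 and 931 CPM at 1 day. Of the 8 markers, 6 were called higher in this comparison, beside 23.4% of all genes. Cd14 (0.24, adjusted p = 0.696) and Ly6c2 (0.76, adjusted p = 0.0905) did not pass. At 1 day, where Mmp12 was also called higher, the sham sums of 695 and 902 CPM overlapped those of MI. The part of these cells in the Mmp12 values was not tested.

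The 6 membrane-type MMPs, which act at the cell surface, did not move together. Mmp14 (MT1-MMP), a collagenase that also activates pro-MMP2, stood at 51.9 and 29.0 CPM in MI against 17.8 and 18 CPM in sham at 1 day, and at 131 and 125 CPM in MI against 24.6 and 11.8 CPM in sham at 3 days. The groups were apart on both days. MI exceeded sham on the log2 scale by 1.19 (SE 0.35, adjusted p = 0.0241) at 1 day and 2.81 (SE 0.35, adjusted p = 0.000101) at 3 days, a difference of 1.62 (SE 0.48, adjusted p = 0.0369). That difference no longer passed without MI library B (adjusted p = 0.0680) or sham library A (0.102) or B (0.116) of 1 day, or without MI library A (0.0955) or B (0.0940) or sham library B (0.103) of 3 days. The difference was also lost with the transcript tables summed to genes. Leaving out sham library A of 3 days gave 3.44 at 3 days and 2.24 for the difference. The 1-day call was lost without MI library A (adjusted p = 0.157), sham library A (0.119) or sham library B (0.111) of that day, or MI library A (0.0572) or B (0.0574) of 3 days. Mmp15 (MT2-MMP) fell on both days, with 9.95 to 16.1 CPM in MI against 89.5 to 118 CPM in sham at 1 day and 12.1 to 16.1 CPM in MI against 60.4 to 76.4 CPM in sham at 3 days. Its log2 fold changes were −2.96 (adjusted p = 0.000178) and −2.28 (adjusted p = 6.99e-05).

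Mmp25 (MT6-MMP), known from neutrophils, stood at 5.83 and 2.21 CPM in MI against 0.116 and 0.115 CPM in sham at 1 day, where each sham library held 2 counts. Its sham libraries of 3 days held 4 and 2 counts, so it entered the test through its MI libraries. By 3 days it stood at 0.901 and 0.306 CPM in MI against 0.214 and 0.106 CPM in sham. The gap between the groups was wide at 1 day and narrow at 3 days. The log2 fold change was 5.14 (SE 0.81, adjusted p = 0.000738) at 1 day, or 4.18 without MI library A, and 1.82 (SE 1.00, adjusted p = 0.143) at 3 days, and the 3-day level within MI was lower than the 1-day level (log2 change −2.87, adjusted p = 0.00115). The difference between the effects was −3.32 (SE 1.74, adjusted p = 0.184). Mmp16 rose at 3 days, by 2.33 (adjusted p = 0.00261), and Mmp17 and Mmp24 passed on neither day. For Mmp16 the difference between the days did not pass (2.51, adjusted p = 0.0698).

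Among the other MMPs, Mmp19, which is widely expressed, stood at 39.1 and 40.9 CPM in MI against 9.78 and 11.5 CPM in sham at 1 day, and at 41.6 and 49.0 CPM in MI against 11.6 and 7.75 CPM in sham at 3 days. The spread within groups was small beside the gap. MI exceeded sham on the log2 scale by 1.91 (SE 0.24, adjusted p = 0.000481) at 1 day and 2.23 (SE 0.23, adjusted p = 3.66e-05) at 3 days. Mmp19 overlaps Tmem198b, which held 37 to 208 counts. Mmp27 stood at 0.648 and 1.72 CPM in MI against 0.174 and 1.15 CPM in sham at 1 day, and at 5.65 and 6.73 CPM in MI against 0.587 and 0.318 CPM in sham at 3 days. It overlapped at 1 day and was apart at 3 days (log2 fold change 3.76, SE 0.58, adjusted p = 0.000421). The difference between the days was 3.05 (SE 1.13, adjusted p = 0.0781), which did not pass. Mmp28 passed on neither day.

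Mmp23, an MMP with an unusual membrane anchor at its amino end, was the member called in opposite directions on the 2 days. It stood at 3.00 and 3.93 CPM in MI against 9.49 and 9.76 CPM in sham at 1 day. The 3-day values were 29.1 and 27.5 CPM in MI against 11.3 and 7.80 CPM in sham. The MI libraries were the lowest of all at 1 day and the highest of all at 3 days. By the test, the log2 fold change was −1.50 (SE 0.32, adjusted p = 0.00571) at 1 day and 1.57 (SE 0.23, adjusted p = 0.000328) at 3 days, and the difference was 3.07 (SE 0.39, adjusted p = 0.000829). Summed fibroblast markers were also lower in MI at 1 day and higher in MI at 3 days, with Gsn lower at 3 days as given above. The 1-day sums hide unequal members: Gsn, Col1a1 and Col3a1 were called lower, and Dcn and Lum had negative values that did not pass. Pdgfra (0.60, adjusted p = 0.0865) and Tcf21 (0.21, adjusted p = 0.757) had positive values at 1 day that did not pass. The part of fibroblasts in the Mmp23 values was not tested. Mmp23 shares a short overlap with Mib2 on the same strand, which held 54 to 667 counts.

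Of the 7 ADAMTS genes of the hyalectanase group, which cut versican and aggrecan, 3 rose at 1 day, and at 3 days 2 rose and 1 fell. That is 42.9% of the group on each day, beside 39.0% of all genes called at 1 day and 55.4% at 3 days. Adamts1, an early gene of injury and inflammation, stood at 1374 and 566 CPM in MI against 114 and 81.8 CPM in sham at 1 day. At 3 days it stood at 205 and 124 CPM in MI against 179 and 125 CPM in sham. The groups were far apart at 1 day and overlapped at 3 days. The fitted log2 fold change was 3.31 (SE 0.43, adjusted p = 0.000585) at 1 day, 9.90-fold, and 0.11 (SE 0.40, adjusted p = 0.830) at 3 days, a difference of −3.20 (SE 0.58, adjusted p = 0.00429). Without MI library A the 1-day value was 2.52.

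Adamts4, the aggrecanase, stood at 172 and 68.8 CPM in MI against 7.35 and 4.99 CPM in sham at 1 day, and at 54.0 and 42.0 CPM in MI against 3.74 and 6.00 CPM in sham at 3 days. Its MI and sham values were apart on both days. On the log2 scale, MI differed from sham by 4.30 (SE 0.46, adjusted p = 0.000240) at 1 day and 3.30 (SE 0.45, adjusted p = 0.000200) at 3 days, or 19.6-fold and 9.84-fold, with 3.47 at 1 day without MI library A, and the difference did not pass (−1.0, SE 0.63, adjusted p = 0.281). With the strand of counting not given, reads that members share with overlapping genes cannot be told apart. Adamts9 rose at 1 day, with 195 to 290 CPM in MI against 58.2 to 94.5 CPM in sham (log2 fold change 1.67, adjusted p = 0.0382). That call was lost without any 1 of the 4 libraries of 1 day (adjusted p = 0.0921 to 0.208) or without MI library A (0.0738) or B (0.0742) of 3 days, and at 3 days the groups overlapped, at 87.3 and 78.9 CPM in MI against 29.4 and 136 CPM in sham. The 1-day call of Adamts9 was also lost with the DESeq2 Wald test and with no filter on low counts. Its difference between the days did not pass (−1.66, adjusted p = 0.146). Adamts8 rose at 3 days (2.55, adjusted p = 0.00223) and its neighbour on chromosome 9, Adamts15, fell at 3 days (−2.12, adjusted p = 0.000403), with 3.33 to 4.63 CPM in MI against 13.4 to 21 CPM in sham. Adamts5, beside Adamts1 on chromosome 16, and Adamts20 passed on neither day.

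The procollagen N-proteinases, which remove the amino end of fibrillar procollagens so that fibrils can form, had 2 of 3 members higher at 3 days, beside 31.7% of all genes, and 0 called at 1 day (0 also at an unadjusted p under 0.05), beside 39.0% of all genes. Adamts2 stood at 52.1 and 32.2 CPM in MI against 40.7 and 40.6 CPM in sham at 1 day, and at 90.7 and 92.0 CPM in MI against 41.4 and 31.6 CPM in sham at 3 days. The groups overlapped at 1 day and were apart at 3 days. The log2 fold change was 0.06 (SE 0.24, adjusted p = 0.851) at 1 day and 1.32 (SE 0.23, adjusted p = 0.000986) at 3 days, and the difference was 1.26 (SE 0.33, adjusted p = 0.0234). This difference did not pass when sham library A (adjusted p = 0.0768) or B (0.0844) of 1 day was left out, or without MI library A (0.0674) or B (0.0800) or sham library B (0.0927) of 3 days. Adamts14 stood at 1.62 and 3.56 CPM in MI against 2.49 and 1.84 CPM in sham at 1 day, and at 5.94 and 6.60 CPM in MI against 1.12 and 2.87 CPM in sham at 3 days. The rise at 3 days was 1.65 (SE 0.43, adjusted p = 0.00918), and it no longer passed when MI library B (adjusted p = 0.0656) or sham library A (0.0656) of 3 days was left out, and became 2.48 without sham library B. For Adamts14 the difference between the days was 1.48 (SE 0.73, adjusted p = 0.167), which did not pass. Adamts3 passed on neither day.

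The 2 ADAMTS genes known to cut cartilage oligomeric matrix protein were called in opposite directions at 3 days. Adamts12 stood at 9.48 and 13.8 CPM in MI against 7.41 and 6.72 CPM in sham at 1 day, and at 54.7 and 51.3 CPM in MI against 11.1 and 11.5 CPM in sham at 3 days. Its MI values were above its sham values on both days, by far more at 3 days. By the test, the log2 fold change was 0.69 (SE 0.25, adjusted p = 0.0559) at 1 day and 2.23 (SE 0.21, adjusted p = 2.18e-05) at 3 days, a difference of 1.54 (SE 0.33, adjusted p = 0.00938). Adamts7 stood at 7.21 and 8.35 CPM in MI against 22.4 and 17.7 CPM in sham at 1 day, and at 7.70 and 7.14 CPM in MI against 21.6 and 16.9 CPM in sham at 3 days. It fell by 1.38 on the log2 scale at 1 day (SE 0.26, adjusted p = 0.00327) and by 1.38 at 3 days (SE 0.23, adjusted p = 0.000759). Comp itself, their namesake substrate, passed on neither day (−1.64, adjusted p = 0.0790, and 0.68, adjusted p = 0.216).

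Of the remaining ADAMTS genes, Adamts6 stood at 11.1 and 31.8 CPM in MI against 10.7 and 10.7 CPM in sham at 1 day, and at 41.8 and 40.6 CPM in MI against 12.9 and 13.7 CPM in sham at 3 days, where it rose by 1.63 (SE 0.36, adjusted p = 0.00369). Adamts16 was called at 1 day on few reads: the MI libraries held 3 and 41 counts against 0 and 3 counts in sham. It entered the test through MI libraries alone. The ratio of the summed counts, scaled to library size, was 24.8 at 1 day (95% counting interval 7.96 to 125). The fitted log2 fold change was 4.59 (SE 1.52, adjusted p = 0.0313), and the call was lost without MI library B (adjusted p = 0.598), the library with reads for most chemosensory genes, and without either sham library of 1 day (0.181 and 0.107) or of 3 days (0.0512 and 0.0511). The 1-day call was also lost with limma-voom, with the libraries of 1 day alone and with the transcript tables summed to genes. At 3 days Adamts16 held 16 and 39 counts in MI against 0 and 2 in sham, a ratio of 19.2 (interval 5.07 to 162) that did not pass the test (adjusted p = 0.0576). Adamts10, Adamts17 and Adamts19 passed on neither day.

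The difference of the MI effects between days, 3 days minus 1 day, was called for 8 of the 38 members (5 positive, 3 negative), beside 24.5% of all genes. These were Timp1, Mmp14, Mmp23, Adamts2 and Adamts12, with positive differences, and Timp3, Timp4 and Adamts1, with negative ones. The count was 5 without sham library A of 1 day, 4 without sham library B of 1 day, 4 without MI library A or B of the later time, and 12 without MI library B of 1 day. Within MI, 22 of the 38 differed between 3 days and 1 day, 13 higher at 3 days and 9 lower, beside 45.4% of all genes. This count was 14 without MI library A of 3 days and 14 without MI library B. The 3-day and 1-day effects of a member rest on separate mice, including separate sham mice.

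Levels of different genes were compared per transcript length, from the transcript tables, as TPM (reads per base of transcript, scaled to the same total in each library) with mitochondrial transcripts left out of the total. Summed over the 4 TIMPs, the level was 585 and 537 TPM in MI against 207 and 195 TPM in sham at 1 day, and 2372 and 2191 TPM in MI against 226 and 204 TPM in sham at 3 days. The MMP sum was 382 and 233 TPM in MI against 169 and 163 TPM in sham at 1 day, and 635 and 552 TPM in MI against 222 and 160 TPM in sham at 3 days. The ADAMTS sum was 804 and 351 TPM in MI against 131 and 103 TPM in sham at 1 day, and 267 and 226 TPM in MI against 175 and 210 TPM in sham at 3 days. All 3 family sums were above sham in both MI libraries on both days, with the ADAMTS sum highest in MI of 1 day and the TIMP and MMP sums highest in MI of 3 days. The ratio of the TIMP sum to the MMP sum was 1.53 and 2.30 in MI against 1.23 and 1.20 in sham at 1 day, and 3.74 and 3.97 in MI against 1.02 and 1.28 in sham at 3 days. These sums were not tested, and they count RNA, not active enzyme.

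Within the families, the order of levels per length was not the same in all groups. In sham of 1 day the order of the TIMPs was Timp3 (101 and 81.0 TPM), Timp2 (60.7 and 68.0 TPM), Timp1 (29.4 and 34.1 TPM) and Timp4 (15.5 and 12.4 TPM), with no overlap between neighbours. That order was not kept apart in sham of 3 days. There Timp2 (93.3 and 51.9 TPM), Timp3 (77.7 and 60.7 TPM) and Timp1 (45.1 and 81.05 TPM) overlapped, and Timp4 stood at 10.1 and 10.6 TPM. In MI of 3 days Timp1 stood at 2275 and 2078 TPM, Timp2 at 57.4 and 74.2 TPM, Timp3 at 40.1 and 37.9 TPM and Timp4 at 0.325 and 0.813 TPM. Timp1 made up 95.9% and 94.8% of the TIMP sum in MI of 3 days, against 19.9% and 39.7% in sham of 3 days. At 1 day its share was 50.4% and 90.5% in MI against 14.2% and 17.4% in sham. The 2 MI libraries of 1 day were far apart here, with Timp3 at 230 TPM in library A and 21.7 TPM in library B, while the count table gave 683 and 284 CPM for the same gene.

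**Figure D3:**
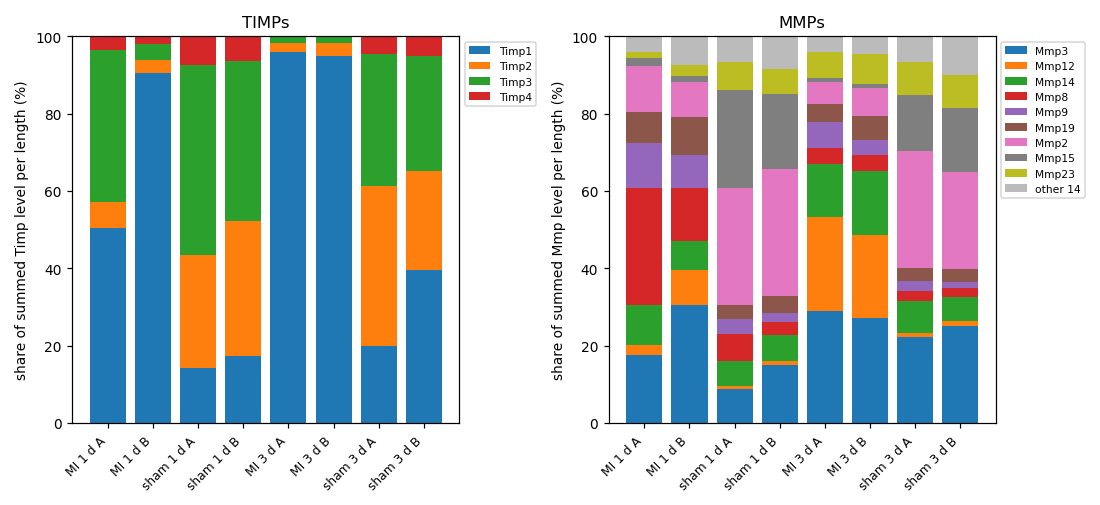
Share of each family's summed TPM taken by its members in each library, MI left of sham within each day. Timp1 takes 94.8 to 95.9% of the TIMP sum in MI at 3 days, and Mmp15 and Mmp2, which lead the MMP sum in sham at 1 day, take small shares in MI at 3 days.

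Among MMPs in sham of 1 day, Mmp2 took 30.2% and 32.7% of the summed level and Mmp15 25.4% and 19.4%. At 3 days Mmp2 took 5.79% and 7.18% in MI against 30.1% and 25.1% in sham, and Mmp15 took 1.12% and 0.957% in MI against 14.5% and 16.5% in sham. Mmp12 took 24.1% and 21.6% in MI against 0.965% and 1.36% in sham of 3 days. Mmp3 took 29.1% and 27.0% in MI against 22.2% and 25% in sham of 3 days. Mmp14 took 13.8% and 16.6% in MI against 8.32% and 6.19% in sham of 3 days. Mmp3 and Mmp12 were close to each other in MI of 3 days, at 185 and 149 TPM and 153 and 119 TPM, and their ranges overlapped. In MI of 1 day Mmp8 (30.2% and 13.7%) and Mmp3 (17.6% and 30.5%) changed rank between the 2 libraries. Adamts1 led the ADAMTS sum in MI of 1 day with 67.4% and 51.9%, against 30.0% and 25.6% in sham of 1 day.

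The 8 members without enough counts for the test were Mmp1a, Mmp1b, Mmp7, Mmp10, Mmp20, Mmp21, Adamts13 and Adamts18. Mmp10, stromelysin 2, was at 0 counts in all 4 sham libraries. It held 2 and 16 counts in MI at 1 day and 8 and 9 counts in MI at 3 days. Set against 3 counts over the sham group, this was at least 10.2-fold higher in MI at 1 day and at least 3.95-fold higher at 3 days. The 1-day value rests on MI library B. The highest value of Mmp20, Mmp21, Adamts13, Adamts18, Mmp1a and Mmp7 also stood in MI library B, at 16, 13, 25, 35, 7 and 2 counts in this order. Mmp1b held at most 6 counts in a library.

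Genes that act with these families were read from lists drawn up by function. Their counts stand beside 39.0% of all genes tested called at 1 day (19.3% higher, 19.7% lower) and 55.4% at 3 days (31.7% higher, 23.7% lower). In the plasminogen system, which activates proMMPs, 4 of 5 tested genes rose at 1 day and 4 at 3 days, and none fell. The largest called change on both days was in Serpinb2, an inhibitor of the urokinase-type plasminogen activator (log2 fold change 5.87, SE 1.28, adjusted p = 0.00571 at 1 day and 3.73, SE 0.71, adjusted p = 0.00130 at 3 days). It was at 14 ± 3.10 CPM in MI against 0.230 ± 0.162 CPM in sham at 1 day (SD, n = 2, here and below) and at 55.9 ± 52.2 CPM in MI against 4.19 ± 3.14 CPM in sham at 3 days, where the MI libraries A and B held 92.9 and 19.0 CPM. Serpine2 did not pass on either day. Of 10 activators, anchors and other inhibitors of MMPs, 2 rose and 3 fell at 1 day, and 1 rose and 2 fell at 3 days. Lcn2, which binds MMP9, had the largest change at 1 day (3.86, SE 0.60, adjusted p = 0.00127), and Tfpi2, a serine protease inhibitor of the matrix, at 3 days (3.72, SE 0.36, adjusted p = 2.20e-05). Reck, a membrane-anchored MMP inhibitor, and Furin, which activates membrane-type MMPs, passed on neither day.

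Of 8 ADAM sheddases, the membrane-bound relatives of ADAMTS enzymes, 5 rose at 1 day, and 5 rose and 1 fell at 3 days, which is 62.5% and 75% called beside 39.0% and 55.4% of all genes. Adam8 had the largest change on both days (4.76, SE 0.44, adjusted p = 0.000155 at 1 day and 4.81, SE 0.45, adjusted p = 1.74e-05 at 3 days), followed by Adam12, with 104 ± 4.65 CPM in MI against 4.02 ± 1.30 CPM in sham at 3 days. Of 6 ADAMTS-like genes, which lack a protease domain, 3 fell at 1 day and 4 fell at 3 days, beside 19.7% and 23.7% of all genes called lower, and none rose. The largest falls were Adamtsl2 at 1 day (−1.38, SE 0.37, adjusted p = 0.0165) and, at 3 days, Papln (−2.63, SE 0.40, adjusted p = 0.000379) and Adamtsl5 (−2.63, SE 0.29, adjusted p = 5.26e-05).

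Of 10 cathepsins, the lysosomal proteases, 4 fell and none rose at 1 day, whereas 9 rose and 1 fell at 3 days. The 40% called at 1 day was near the 39.0% of all genes, and all 10 were called at 3 days beside 55.4%. Ctss, the macrophage cathepsin S, was at 94.9 ± 2.51 CPM in MI against 58.9 ± 12.5 CPM in sham at 1 day and at 1508 ± 163 CPM in MI against 94.3 ± 45.6 CPM in sham at 3 days (4.0, SE 0.33, adjusted p = 8.69e-06). Ctsf had the largest fall at 1 day (−1.72, SE 0.24, adjusted p = 0.000753) and was the cathepsin that fell at 3 days (−3.59, SE 0.26, adjusted p = 4.67e-06). Of 12 proteoglycan and glycoprotein substrates, 4 rose and 1 fell at 1 day, and 4 rose and none fell at 3 days, which is 41.7% called at 1 day, near the share of all genes, and 33.3% at 3 days, below it. Vcan, the versican substrate of Adamts1 and Adamts4, was at 616 ± 99.9 CPM in MI against 108 ± 3.28 CPM in sham at 1 day and at 699 ± 10.9 CPM in MI against 120 ± 17.1 CPM in sham at 3 days. The largest changes were Bcan at 1 day, on low counts (3.90, SE 1.21, adjusted p = 0.0237), and Fn1, fibronectin, at 3 days (3.89, SE 0.32, adjusted p = 8.14e-06). Bcan held 0 to 4 counts in the sham libraries and Acan 1 to 7, and both entered the test through their MI libraries. Both were among the genes called higher at 1 day, so that count depended in part on MI. In MI of 1 day, libraries A and B held 8 and 20 counts of Bcan and 6 and 28 of Acan.

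In the authors' deposited table for 1 day, 16 of 40 members with an adjusted p were below 0.05, 12 higher and 4 lower in MI, beside 25.1% of all genes in that table. In the authors' deposited table for 3 days, 25 of 38 were below 0.05, 18 higher and 7 lower in MI, beside 55.9% of all genes. All 16 members of the authors' deposited table of 1 day and 21 of the 25 of the authors' deposited table of 3 days were also called by edgeR in the same direction. The other 4 of the authors' deposited table at 3 days were Adamts16, Adamts17, Mmp11 and Timp3. Mmp13, called higher by edgeR at 1 day, was not called in the authors' deposited DESeq2 table of 1 day (adjusted p = 0.05105).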

How the data were processed

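Per the labels' protocols, ribosomal RNA was removed from total RNA before paired-end sequencing. The submitters' processing notes name TopHat2 2.0.14, Bowtie2 2.2.5, HTSeq, SAMtools 0.1.2, DESeq2 and FastQC without their roles, and the build mm10. The sources used here give neither the annotation release nor the strand setting. The deposited tables hold raw counts per gene symbol, 1 table per day. Their columns name the group but no replicate number, and 2 columns of sham at 1 day share a header. Per the file headers, the authors also deposited DESeq2 tables with a log2 fold change and an adjusted p-value, whose sign, checked against the counts, is sham over MI in the 3-day table and MI over sham in the 1-day table. The transcript tables hold counts of reads per transcript and transcript length, per the file headers.

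The count tables were joined by symbol, filtered with filterByExpr and scaled by TMM. The 4 groups shared 1 fit over all 8 libraries (edgeR 4.0.16, R 4.3.3), since pairs of libraries alone estimate the spread poorly. The robust, 2-sided quasi-likelihood F test was used, with Benjamini-Hochberg adjustment over all genes tested and a threshold of 0.05. The SE is the log2 fold change divided by the square root of F. The fit was tested on simulated data. TPM was computed from transcript reads and length. Ratios of few counts carry exact 95% intervals for counting error only. Alternatives used limma 3.58.1 and DESeq2 1.42.0, other scalings and filters, the transcript tables, and each library left out.

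Members and lists were chosen with earlier results of these data known. Full statistics were given for the TIMPs, for the called member with the largest change of each role group at each day and for members with a called difference between days. Of each list by function, the called gene with the largest change at each day was named. Some genes are not reported here and stand outside these lists. Serpine2, Reck, Furin, Adam12, Adamtsl5, Vcan, Comp, Ccr2, Ly6c2, Cd14, Fcgr1, Lyz2, Col3a1 and Gsn were named after their values were seen, as were the library values of Mmp2, Mmp8, Mmp15, Adamts9 and Adamts15. So were S100a8, S100a9, Csf3r, Retnlg, Ngp, Ltf, Camp, Acan, Pdgfra, Tcf21, Dcn, Lum and Col1a1. The labels say that replicates are separate mice.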

Additional observations from a re-analysis of the deposited data

Results flagged for a closer look

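The members below were picked out because the effect of MI differed between 3 days and 1 day by edgeR's quasi-likelihood test of that difference (Benjamini-Hochberg adjusted p, 2 mice per group). The difference of the log2 fold changes, 3 days minus 1 day, was positive for Mmp23 (3.07, adjusted p = 0.000829), Mmp14 (1.62, adjusted p = 0.0369), Timp1 (1.61, adjusted p = 0.0320), Adamts12 (1.54, adjusted p = 0.00938) and Adamts2 (1.26, adjusted p = 0.0234). It was negative for Timp4 (−4.67, adjusted p = 0.000105), Adamts1 (−3.20, adjusted p = 0.00429) and Timp3 (−1.43, adjusted p = 0.0496). The differences of Timp4, Adamts1, Mmp23 and Adamts12 held under every alternative run, and those of Timp1, Timp3, Mmp14 and Adamts2 did not.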

How the results depend on the processing

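With 2 mice per group, 12 of 17 calls at 1 day and 20 of 21 at 3 days held under all 17 alternatives, and 4 of 8 calls on the difference between days held under all 16 that could be run. Of values that had not passed, Timp3 at 3 days was called lower under 7 of the 17. Those not held were Timp2, Mmp13, Mmp14, Adamts9 and Adamts16 at 1 day, Adamts14 at 3 days, and Timp1, Timp3, Mmp14 and Adamts2 for the difference. The counts called ranged from 12 to 20 at 1 day and from 20 to 27 at 3 days. For the difference, a threshold of 0.01 gave 4 members in place of 8, and leaving out each library in turn gave 4 to 12. For MI at 3 days against MI at 1 day, leaving out each library gave 14 to 22. Without both libraries B of 1 day, an alternative chosen after seeing the data, 14 members were called at 1 day and 9 for the difference. Directions turned in values that had not passed the test: Timp2 at 3 days became 0.11 with library size alone (adjusted p = 0.790) and 0.41 without sham library A of 3 days (0.360), and without MI library A of 1 day Timp3 at 1 day became −0.20 (0.322) and Timp4 at 1 day −0.10 (0.697). Over all left-out libraries these 3 values ranged from −0.54 to 0.41 for Timp2, from −0.20 to 1.08 for Timp3 and from −0.10 to 0.31 for Timp4. The cause was not tested. Library size alone moved the median of all genes by 0.27 at 1 day and 0.26 at 3 days on the log2 scale, and DESeq2 size factors by −0.13 at 3 days. No paired analysis was possible because the count columns carry no replicate number.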
